A study of Mus musculus with 14 samples.

Results

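DNA methylation at promoters that lie outside CpG islands was examined in the mammary adipose tissue of 14 female C57BL/6N mice, taken from the side opposite to an injected E0771 mammary tumor. Of 75761 cytosines in the table of levels, 8943 (11.8%) are autosomal sites that carry the promoter flag and lack the island flag. They make up 48.73% of the 18351 autosomal promoter sites, and the remaining 9408 promoter sites lie in islands. Nearest transcripts assign 8878 of them to 3118 gene symbols, 37 have no symbol, and at 28 the symbol has turned into a date and was not used. The mice were wild type and 8 weeks old on arrival. CON-LFD mice (n = 3) ate a diet with 10% of calories from fat throughout. All other mice were first made obese for 15 weeks on a diet with 60% of calories from fat. DIO-HFD mice (n = 4) then stayed on that diet, DIO-LFD mice (n = 3) changed to the low-fat diet, and DIO-VSG mice (n = 4) had vertical sleeve gastrectomy, the removal of most of the stomach, and also ate the low-fat diet. Groups without gastrectomy had sham surgery, so every group shares an operation, the injected tumor cells, and a wait of 7 weeks before and 4 weeks after the injection. The labels describe the tissue as normal while naming the tumor line as its cell line. Expression of cell type markers was not analysed here, and in bulk tissue a different mix of cell types and a different methylation within cells cannot be told apart. The samples are separate mice by their labels.

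CpG islands are stretches that kept their CpG dinucleotides, and their promoters are mostly unmethylated in all tissues. The island promoter sites measured here averaged 42.6% in DIO-HFD and 43.4% in DIO-VSG mice, so they do not stand for island promoters in general. Promoters outside islands are poor in CpG, often belong to genes used by few cell types, and their methylation differs between tissues. Methylation near such a start often goes along with a silent gene. RRBS reads short fragments cut by MspI at CCGG after bisulfite treatment, and the level is the methylated share of the reads at a cytosine. Because MspI favors CpG-rich DNA, the promoters outside islands that are seen here are those with enough CCGG to give fragments of 40 to 170 bp.

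The CpG content around these sites lay between that of island promoter sites and that of measured sites outside promoters and islands. Within 250 bp on either side of a site, the median ratio of observed to expected CpGs was 0.436, against 0.825 at island promoter sites and 0.363 at sites outside promoters and islands, and the median number of CpGs was 17, against 46 and 14. CCGG holds 3913 of the sites (43.75%). By the flags in the table, 3106 sites (34.73%) are exonic, 4758 (53.2%) intronic and 2039 neither; a site can be both, since transcripts overlap. Of 3122 symbols (those in date form counted), 2029 have a promoter in the RefSeq set for GRCm38.p6, which spans 250 bases before to 50 after each start. For genes whose promoter sites all lie outside islands, those 300 bases held a median of 13 CpGs, against 25 for genes whose promoter sites all lie in islands and 7 for all genes in the set. The letters GGGCGG, on either strand, were in 54.5% of the 1548 windows of the first kind, in 72.2% of the second kind and in 35.7% of all 32851 windows. TATAAA, on either strand, was in 6.72%, 7.17% and 13.6%.

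Stretches of 4 promoters are printed to show what such a promoter looks like and which of its CpGs were read. They were chosen after their values were seen, from 23 windows with at least 3 measured sites in the 250 bases before the RefSeq start and no annotated exon there; in DIO-VSG mice the mean of the promoter was higher than in DIO-HFD mice for the first pair and lower for the second. Each runs 5′ to 3′ on the strand of the gene in GRCm38.p6, with measured CpGs in capitals. Il11, encoding a cytokine of the interleukin-6 family, lies on the minus strand, and its stretch is chr7:4778142-4778391. Slc44a4, a member of the choline transporter-like family, lies on the plus strand at chr17:34914216-34914465. Nfatc2, encoding a calcium-regulated transcription factor of T cells, lies on the minus strand at chr2:168590366-168590615. Kcnn4, encoding a calcium-activated potassium channel, lies on the plus strand at chr7:24370013-24370262.
Il11: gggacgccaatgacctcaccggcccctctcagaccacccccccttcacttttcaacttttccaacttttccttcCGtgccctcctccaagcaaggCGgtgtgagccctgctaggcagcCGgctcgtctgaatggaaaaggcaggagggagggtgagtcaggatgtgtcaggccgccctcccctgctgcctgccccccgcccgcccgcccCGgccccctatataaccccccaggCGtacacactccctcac
Slc44a4: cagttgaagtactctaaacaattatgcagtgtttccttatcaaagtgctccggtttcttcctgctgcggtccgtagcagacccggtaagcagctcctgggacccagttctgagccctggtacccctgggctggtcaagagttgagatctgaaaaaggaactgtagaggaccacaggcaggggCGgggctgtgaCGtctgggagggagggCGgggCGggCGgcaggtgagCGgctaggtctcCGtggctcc
Nfatc2: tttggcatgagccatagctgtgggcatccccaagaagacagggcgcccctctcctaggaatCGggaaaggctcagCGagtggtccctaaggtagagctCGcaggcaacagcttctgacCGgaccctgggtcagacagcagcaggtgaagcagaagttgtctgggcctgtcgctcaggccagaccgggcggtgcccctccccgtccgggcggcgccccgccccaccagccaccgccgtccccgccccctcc
Kcnn4: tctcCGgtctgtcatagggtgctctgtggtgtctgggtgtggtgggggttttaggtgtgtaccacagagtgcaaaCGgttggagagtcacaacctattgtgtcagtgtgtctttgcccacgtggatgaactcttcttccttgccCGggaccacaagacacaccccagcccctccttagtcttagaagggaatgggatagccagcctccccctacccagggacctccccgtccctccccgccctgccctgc

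The printed stretches show how much neighbouring CpGs of 1 promoter differ. In Il11, the site at position -176 from the transcript start had a level of 60.4% ± 7.84 (SD, n = 4) with DIO-VSG and 32.4% ± 25.6 (SD, n = 4) with DIO-HFD. The CCGG site at position -41 of the same promoter was at 65.5% ± 1.45 and 63.5% ± 9.15 in these groups. In Kcnn4, the site at position -175 outside CCGG had 6.01% ± 1.79 in DIO-VSG and 17.3% ± 8.28 in DIO-HFD mice, whereas the CCGG sites at -246 and -106 had 59.1% and 46.1% in DIO-VSG mice. In Nfatc2, the sites at -152, -175 and -189 were between 6.78% and 9.46% in DIO-VSG mice and between 17.4% and 19.7% in DIO-HFD mice, and the CCGG site at -132 was near 57% in both (57.1% and 57.9%). In Slc44a4, the 7 capital CpGs ranged from 20.2% (position -61) to 79.4% (position -45) in DIO-VSG mice.

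Averaged over the 8943 sites, the level was 51.2% ± 2.20 (SD, n = 3) in CON-LFD, 48.7% ± 3.74 (SD, n = 4) in DIO-HFD, 51.4% ± 2.11 (SD, n = 3) in DIO-LFD and 52.8% ± 0.344 (SD, n = 4) in DIO-VSG mice. The CON-LFD mice had 52.4%, 52.5% and 48.7%, and the DIO-LFD mice 53.6%, 49.4% and 51.1%. The DIO-HFD mice had 54.2%, 46.0%, 47.9% and 46.8%, and the DIO-VSG mice 53.1%, 52.5%, 52.5% and 53.1%. DIO-HFD replicate 1 was above every other mouse of the study, and DIO-HFD replicates 2 to 4 were below every other mouse. The mean of these promoter sites lay 2.48 percentage points above that of DIO-HFD mice in CON-LFD (two-sided exact permutation test, p = 0.343), 2.70 points above it in DIO-LFD (exact p = 0.343) and 4.09 above it in DIO-VSG (exact p = 0.143). It lay 1.39 points higher in DIO-VSG than in DIO-LFD (exact p = 0.286). Adjusted by Benjamini-Hochberg for 4 comparisons, all exact p-values became 0.343, and the smallest exact p possible is 0.0571 for 3 mice against 4 and 0.0286 for 4 against 4. None of these differences had an exact p under 0.05 in the permutation test. With these group sizes only DIO-VSG against DIO-HFD could have had one. No p adjusted over these 4 comparisons could be under 0.05, so the adjusted test could not decide. The first 3 comparisons share the DIO-HFD mice, so they are not independent of each other. With DIO-HFD replicate 1 left out, the same 3 contrasts gave 4.30 (exact p = 0.1), 4.53 (exact p = 0.1) and 5.92 points (exact p = 0.0571), and these p-values are the smallest that the remaining mice allow. Leaving out 1 of the other mice gave from 1.56 (without DIO-HFD replicate 2) to 3.745 points (without CON-LFD replicate 3) for CON-LFD against DIO-HFD. For DIO-LFD against DIO-HFD it gave from 1.59 (without DIO-LFD replicate 1) to 3.69 (without DIO-LFD replicate 2). The difference between DIO-VSG and DIO-LFD was 0.409 points without DIO-LFD replicate 2 and 2.51 without DIO-LFD replicate 1.

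**Figure D1:**
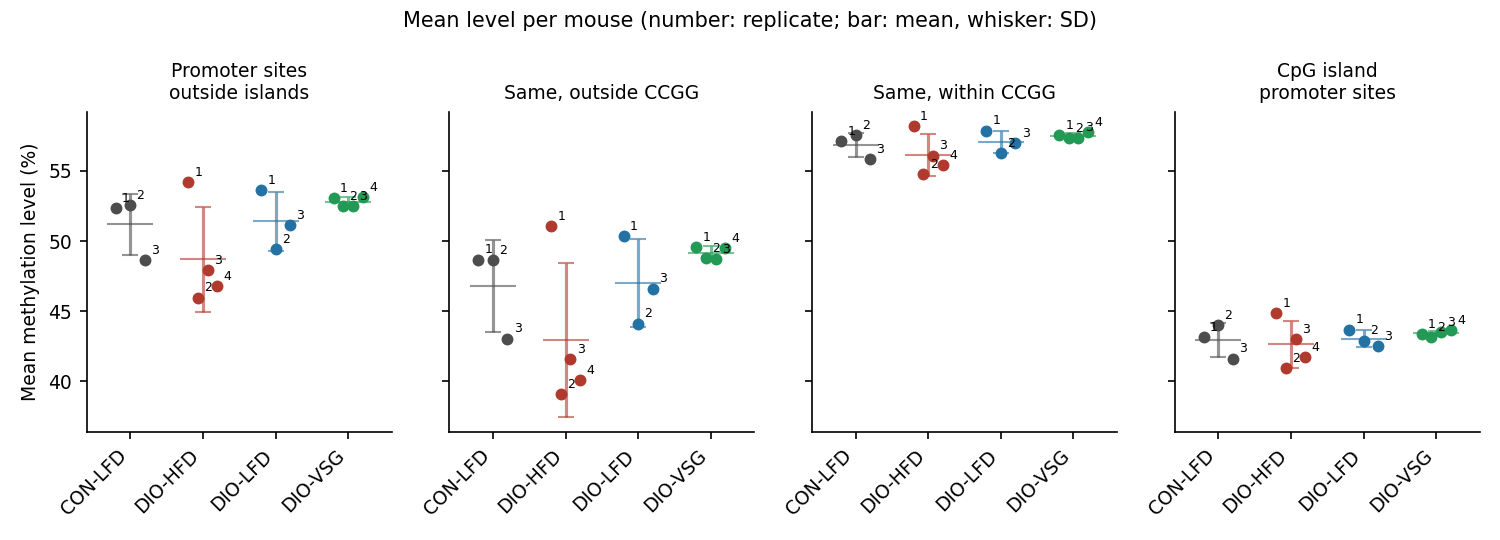
Mean methylation level per mouse in percent (vertical axis) for promoter sites outside islands, the same split by CCGG, and CpG island promoter sites, by group. Points are mice numbered by replicate, bars are group means and whiskers SD; DIO-HFD replicate 1 sits at 54.2% in the first panel while replicates 2 to 4 sit between 46.0% and 47.9%, and the points of all groups lie closer together within CCGG than outside it.

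The promoter sites outside islands were compared within each mouse with the kinds of site most like them. They lay 19.8 points below the sites outside promoters and islands in DIO-VSG mice (mean difference -19.8) and 18.5 points below them in DIO-HFD mice (mean -18.5), a change of -1.36 points (two-sided exact permutation test, p = 0.114). For CON-LFD and DIO-LFD against DIO-HFD mice the changes were -1.35 (exact p = 0.114) and -1.19 (exact p = 0.229), and for DIO-VSG against DIO-LFD mice -0.17 (exact p = 0.171). Without DIO-HFD replicate 3 the first 3 changes were -0.72, -0.71 and -0.55. The last was -0.083 without DIO-LFD replicate 1 and -0.11 without DIO-VSG replicate 3. With equal weight per promoter the 4 changes were -2.61, -2.13, -2.05 and -0.57, and at sites with an SD of at least 0.05 the last was -0.012 (exact p from 0.143 to 1.0). The difference between DIO-VSG and DIO-HFD mice was 4.09 points at these promoter sites, 5.46 at sites outside promoters and islands and 0.779 at island promoter sites. Outside CCGG it was 6.20 at these promoter sites, 6.04 at sites outside promoters and islands and 4.20 at island promoter sites. The excess over island promoter sites was 9.35, 5.0, 4.90 and 5.05 points in the DIO-HFD mice and 9.71, 9.34, 9.02 and 9.48 in the DIO-VSG mice. It was 3.32 points larger in DIO-VSG than in DIO-HFD mice (exact p = 0.0857), and 2.20 (exact p = 0.229) and 2.31 points (exact p = 0.171) larger in CON-LFD and DIO-LFD mice, the latter 1.52 without DIO-LFD replicate 1. DIO-VSG exceeded DIO-LFD mice by 1.01 points (exact p = 0.4), by 0.0884 without DIO-LFD replicate 2 and by 1.79 without DIO-LFD replicate 1. Over the 4 comparisons the smallest adjusted p was 0.229 for the first reference and 0.305 for the second.

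Sites within CCGG and outside it behaved differently. Over the 14 mice, the median level was 55.1% (quartiles 46.4% and 69.8%) at the 3913 sites within CCGG and 45.4% (quartiles 22.3% and 70.4%) at the 5030 others. Levels from 40% to 60% were found at 1828 sites within CCGG (46.7%) and at 974 outside it (19.4%), and levels under 20% at 108 (2.76%) and 1075 (21.4%). Outside CCGG the group means were 46.8% ± 3.25 in CON-LFD, 42.9% ± 5.50 in DIO-HFD, 47.0% ± 3.14 in DIO-LFD and 49.1% ± 0.473 in DIO-VSG mice; within CCGG they were 56.8%, 56.1%, 57.0% and 57.5%. The difference between DIO-VSG and DIO-HFD mice was 6.20 points outside and 1.39 points within CCGG (exact p = 0.143 for each), and 8.90 and 2.09 without DIO-HFD replicate 1 (exact p = 0.0571 for each). Restricted to sites outside CCGG, a restriction chosen after seeing the data, the excess over island promoter sites was 2.00 points larger in DIO-VSG than in DIO-HFD mice (exact p = 0.0286, adjusted over 4 comparisons 0.114). With this restriction the change relative to sites outside promoters and islands, -1.36 over all sites, was 0.157 points (exact p = 0.8). It was -0.38 (exact p = 0.686) for CON-LFD and -0.17 (exact p = 0.914) for DIO-LFD against DIO-HFD mice. For DIO-VSG against DIO-LFD mice, with -0.17 over all sites, it was 0.327 points (exact p = 0.571). CCGG is the sequence at which MspI cuts; the part of the cut ends in these levels was not tested.

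Level and group difference also varied with position and CpG density. Levels were lowest from 250 to 100 bp before the transcript start, where the group means ran from 45.2% in DIO-HFD to 48.8% in DIO-VSG mice over 662 sites. They were highest in the bin farthest upstream, which ends 1000 bp before it, where the means ran from 52.4% in DIO-HFD to 57.8% in DIO-VSG mice over 710 sites. In each of 10 bins of distance the DIO-HFD mean was the lowest of the 4 groups and the DIO-VSG mean the highest, and the difference between them was between 3.4 and 5.40 points. The sites were cut into 5 classes of nearly equal size by the observed to expected ratio of CpGs. From the lowest to the highest class, the DIO-VSG mean went from 63.1% to 44.0% and the difference from DIO-HFD mice from 5.66 to 1.17 points (8.02 to 1.84 without DIO-HFD replicate 1). Within each class the difference was larger outside CCGG (3.8 to 6.97 points) than within it (-0.311 to 3.8 points). Exonic sites had a higher level than the others, with 56% against 51.1% in DIO-VSG mice. The 479 sites at miRNA genes had 64.3% and 58.5% in DIO-VSG and DIO-HFD mice, and the 6945 sites at protein-coding genes 51.1% and 47.1%. Sites flagged as promoter of a miRNA gene can lie within another transcript. All 32 sites of Mir671, from position -975 to 360, are flagged exonic, and all 4 of Mir7687, from -314 to 344, intronic. The values of this paragraph are descriptions over sites that share mice, libraries and often fragments.

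**Figure D2:**
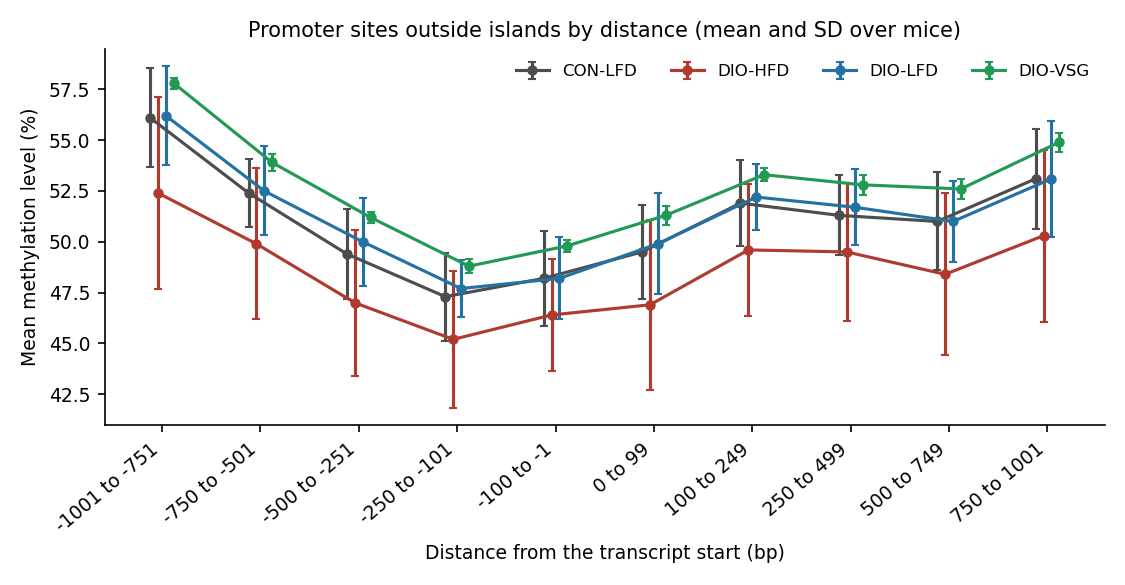
Mean methylation level in percent of promoter sites outside islands (vertical axis) by distance from the transcript start in bp (horizontal axis), 1 line per group with the SD over mice as whiskers. All groups dip between 250 and 100 bp before the start, and DIO-HFD is lowest and DIO-VSG highest in every bin, with wide DIO-HFD whiskers.

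**Figure D3:**
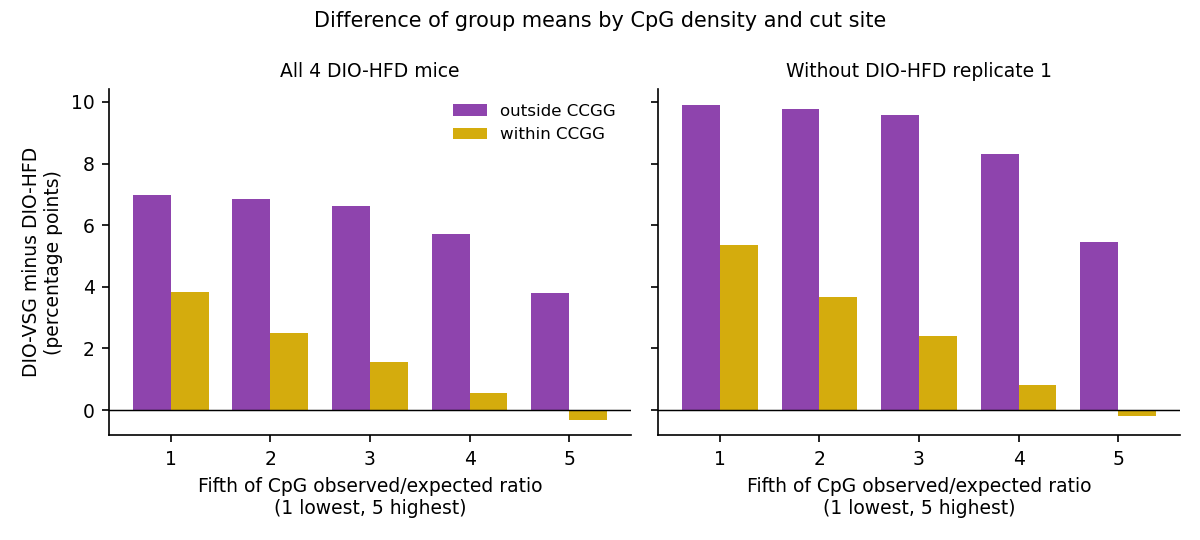
Difference between the DIO-VSG and DIO-HFD group means in percentage points (vertical axis, bars from 0) by class of the observed to expected CpG ratio, for sites outside and within CCGG, with all DIO-HFD mice (left) and without replicate 1 (right). With all mice the bars go from 6.97 to 3.8 points outside CCGG and from 3.8 to -0.311 points within it.

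Single sites were tested with limma on M = log2((b + 0.01)/(1 - b + 0.01)), where b is the level, over all 65610 sites with an SD across mice of at least 0.05; 7279 of the 8943 promoter sites outside islands passed this filter and 1664 did not. None of the 7279 reached an adjusted p under 0.05 in limma, in any comparison: 0 for CON-LFD against DIO-HFD (0.0% of all tested sites), and 0 for DIO-LFD against DIO-HFD, DIO-VSG against DIO-HFD and DIO-VSG against DIO-LFD (0.00305% of all tested sites in each). At an unadjusted p under 0.05, limma gave 511 of them (7.02%) for CON-LFD, where all tested sites gave 7.76%, and 703 (9.66%) for DIO-LFD, where all gave 10.1%. For DIO-VSG against DIO-HFD it gave 1970 (27.1%), where all gave 25.0%, and 1586 of the 7279 were higher in DIO-VSG, a direction found at 20.2% of all tested sites. For DIO-VSG against DIO-LFD it gave 236 (3.24%), where all gave 3.98%. The shares were near those of all tested sites in each comparison. With each mouse left out in turn, the 511 ranged from 183 (without CON-LFD replicate 1) to 2486, the 703 from 339 (without DIO-HFD replicate 4) to 2601 and the 1970 from 1015 (without DIO-HFD replicate 2) to 3569, the highest each time without DIO-HFD replicate 1. The 236 ranged from 170 to 505 (without DIO-LFD replicate 1). All DIO-VSG mice lay above all DIO-HFD mice at 439 of the 8943 sites (4.91%, against 5.39% of all sites) and below them at 186 (2.08%, against 2.0% of all sites). Without DIO-HFD replicate 1, adjusted p was under 0.05 at 988 of the 7279 sites for CON-LFD (all tested sites: 12.0%), at 1205 for DIO-LFD (14.6%) and at 2826 for DIO-VSG (34.4%), of which 2357 were higher in DIO-VSG (28.8% of all tested sites were called higher).

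Of the 4 sites with the smallest p between DIO-VSG and DIO-HFD mice, 3 are given here. A CCGG site of Zfand3, encoding a zinc finger protein, at position 30005249 of chromosome 17 (164 bp after the start, exonic) had 73.0%, 81.1%, 86.1% and 77.4% in the DIO-HFD mice and 100%, 100%, 97.2% and 100% in the DIO-VSG mice. A second CCGG site of the same gene, at position 30005380, had 22.7%, 15.1%, 13% and 18% in the DIO-HFD mice and 0% in all DIO-VSG mice. The groups did not overlap at either site and differed in opposite directions, with M differences of 4.24 (SE 0.668) and -4.43 (SE 0.824) and an adjusted p of 0.150 in limma for both. An exonic site of Kcnj11, encoding the pore of the ATP-sensitive potassium channel, at position 46099612 of chromosome 7 had 60.0%, 84.4%, 71.9% and 63.8% in the DIO-HFD mice. It had 40.9%, 37.2%, 34.2% and 41.8% in the DIO-VSG mice, all below the DIO-HFD mice (limma, M difference -1.93, SE 0.384, adjusted p 0.150). The smallest p between DIO-VSG and DIO-LFD mice belonged to a CCGG site of Gm12930 at position 124987623 of chromosome 4, with 86.3% ± 1.37 and 100% in every DIO-LFD mouse (limma, adjusted p 0.105).

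Sites were then averaged per gene symbol, as 1 value per mouse, here called a promoter. A gene with several starts had the sites around all of them pooled: in 131 of the 1773 promoters with at least 2 sites, and in 53 of the 814 tested, the sites span more than the 2002 bp that the flag covers around 1 start. Of the 3118 promoters, 1345 have 1 site and 1773 have at least 2, and 814 of the latter with an SD of the mean of at least 0.05 entered the fit of 1286 promoters inside and outside islands. In limma, 0 of the 814 had an adjusted p under 0.05 in each of the 4 comparisons (0.0% of all tested promoters). For DIO-VSG against DIO-HFD, limma on the level in place of M called 92 of the 814 (11.3%; 71 higher, 21 lower), where 10.1% of all tested promoters were called (130 of 1286). The numbers at an unadjusted p under 0.05 were 57 for CON-LFD (7.0%, where all tested promoters gave 5.68%), 82 for DIO-LFD (10.1%, against 11.2%), 392 for DIO-VSG (48.2%, against 39.8%) and 15 for DIO-VSG against DIO-LFD (1.84%, against 2.41%). For DIO-VSG against DIO-HFD, 324 of the 392 were higher in DIO-VSG, a direction found at 30.2% of all tested promoters. With each mouse left out in turn, the 57 ranged from 13 (without CON-LFD replicate 1) to 495, the 82 from 24 (without DIO-HFD replicate 4) to 511, the 392 from 179 (without DIO-HFD replicate 2) to 640 and the 15 from 12 to 59, the highest each time without DIO-HFD replicate 1. The smallest adjusted p for DIO-VSG against DIO-HFD was 0.0847 in limma. Without DIO-HFD replicate 1, 348 of the 814 were called for CON-LFD (31.3% of all tested promoters), 385 for DIO-LFD (35.4%) and 598 for DIO-VSG (56.8%), of which 513 were higher in DIO-VSG (47.0% of all tested promoters). With any other single mouse left out, at most 1 of the 814 was called in any comparison. That promoter was called for DIO-VSG against DIO-HFD without DIO-VSG replicate 1, as the only 1 of all 1286 tested. The SD filter uses all 14 mice, so promoters enter the fit because they vary, inside and outside islands alike. Sites were also fitted with every mouse centred on its own median over all 65610 tested sites. The median M difference between DIO-VSG and DIO-HFD over the member sites then moved from 0.42 to -0.06. The share higher among the sites at an unadjusted p under 0.05 in limma moved from 80.5% to 42.8%. Promoters were centred on the median over the 1286 tested promoters, 450 of them in islands, where the median M difference was 0.0133. With that reference the median moved from 0.58 to 0.44, and the share from 82.7% to 77.4%. The 2 references differ, so the 2 shifts cannot be set against each other.

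The promoters with the smallest p in the comparison of DIO-VSG with DIO-HFD mice mostly had few sites. Notch4, encoding a Notch receptor of endothelial cells, has 2 intronic sites 693 and 731 bp after the start on chromosome 17. Its promoter had 74.0%, 44.8%, 40.9% and 45.9% in the DIO-HFD mice and 78.8%, 78.6%, 76.5% and 76.0% in the DIO-VSG mice. All DIO-VSG mice were above all DIO-HFD mice, by 26.1 points on average (limma, M difference 1.64, SE 0.409, adjusted p 0.0847). Zmynd8, encoding a chromatin reader, is among the smallest p for DIO-LFD against DIO-HFD; its 3 sites lie within 18 bp of the start on chromosome 2. They averaged 39.6%, 1.64%, 4.33% and 6.56% in the DIO-HFD mice, 47.9%, 25.8% and 32.6% in the DIO-LFD mice and 39.5%, 46.6%, 31.5% and 38.3% in the DIO-VSG mice. DIO-HFD replicate 1 thus lay among the DIO-VSG mice and the other DIO-HFD mice near 0. The difference between DIO-LFD and DIO-HFD was 22.4 points (limma, adjusted p 0.398). The adjusted p was 0.00249 without DIO-HFD replicate 1 and up to 0.774 without another mouse. The promoter of B230319C09Rik had 10.8%, 0.378%, 3.31% and 4.03% in the DIO-HFD mice and 13.2%, 18.2%, 16.0% and 13.9% in the DIO-VSG mice, which did not overlap (adjusted p 0.0847).

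Other promoters, Slc26a5 and Mir7687, had lower means in the compared group than in DIO-HFD mice. Slc26a5, encoding the motor protein prestin of the inner ear, had 37.1%, 22.5%, 13.9% and 31.2% in the DIO-HFD mice, 20.3%, 33.1% and 18.6% in the DIO-LFD mice and 15.8%, 3.76%, 7.05% and 8.76% in the DIO-VSG mice. The DIO-VSG and DIO-HFD mice overlapped, and their means differed by -17.3 points (limma, M difference -1.83, SE 0.448, adjusted p 0.0847). Mir7687, with 4 intronic sites on chromosome 8, was among the smallest p for CON-LFD against DIO-HFD. Its promoter was at 4.90%, 5.06% and 4.94% in the CON-LFD mice and at 10.6%, 22.5%, 18.8% and 10.9% in the DIO-HFD mice (-10.7 points; limma, adjusted p 0.529), and the groups did not overlap. In the comparison of DIO-VSG with DIO-LFD mice, Lrrc10, a heart and muscle gene, had 84.4% ± 3.79 and 67% ± 2.81 (17.4 points, limma, adjusted p 0.857). The mean of Lrrc10 in DIO-HFD mice was 74.0% ± 8.43, below that of DIO-VSG mice.

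Some promoters had many sites. The 125 promoters with at least 10 sites hold 1803 sites, and 103 of them had a higher mean in DIO-VSG than in DIO-HFD mice and 22 a lower one, with a median difference of 7.47 points and a range from -16.6 to 22.3; over all 3118 promoters, 2072 were higher and 1045 lower, with a median of 2.30. In 33 of the 125 the sites span more than 2002 bp; of the other 92, 76 were higher and 16 lower, with a median of 7.59 points. Nradd, encoding a death-domain protein related to the neurotrophin receptor, has the most, 44 sites on chromosome 9 from position -945 to position 336 around its start. It had 49.4%, 20%, 25.7% and 24.0% in the DIO-HFD mice and 46.6%, 48.0%, 42.0% and 44.4% in the DIO-VSG mice. Replicate 1 was thus above all DIO-VSG mice and the other 3 DIO-HFD mice below them (limma, adjusted p 0.0877). The adjusted p was 0.00100 without replicate 1 and up to 0.241 without another mouse. Plec, encoding the cytoskeletal linker plectin, has 43 sites spread over 33.9 kb and had 65.2% ± 8.79 in DIO-HFD and 73.2% ± 1.26 in DIO-VSG mice. Its M difference was 0.495 (limma, adjusted p 0.183), and 0.792 without DIO-HFD replicate 1 (adjusted p 0.00273). Without another mouse the adjusted p was up to 0.388. Arhgef10l has 25 sites spread over 83.9 kb and had 57.7% ± 9.78 and 69.3% ± 0.896 (limma, adjusted p 0.114). The adjusted p was 0.00325 without replicate 1 and up to 0.281 without another mouse.

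Of the 6 promoters named for their number of sites, Mir671, Hoxd3 and Hpn varied too little to enter the fit. Hpn has as many sites as Unc13d and was taken by symbol order. Mir671, a miRNA gene with 32 sites, had 42.3% ± 4.12 in DIO-HFD and 46.4% ± 1.17 in DIO-VSG mice. Hpn, encoding the serine protease hepsin, has 24 sites over 5.12 kb with 60.4% ± 5.16 and 64.1% ± 1.53. Hoxd3, a homeobox gene with 28 sites over 4.47 kb, had the opposite order, with 25.4%, 33.7%, 42.1% and 35.8% in the DIO-HFD mice and 26.1%, 26.4%, 26.8% and 27.3% in the DIO-VSG mice.

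**Figure D4:**
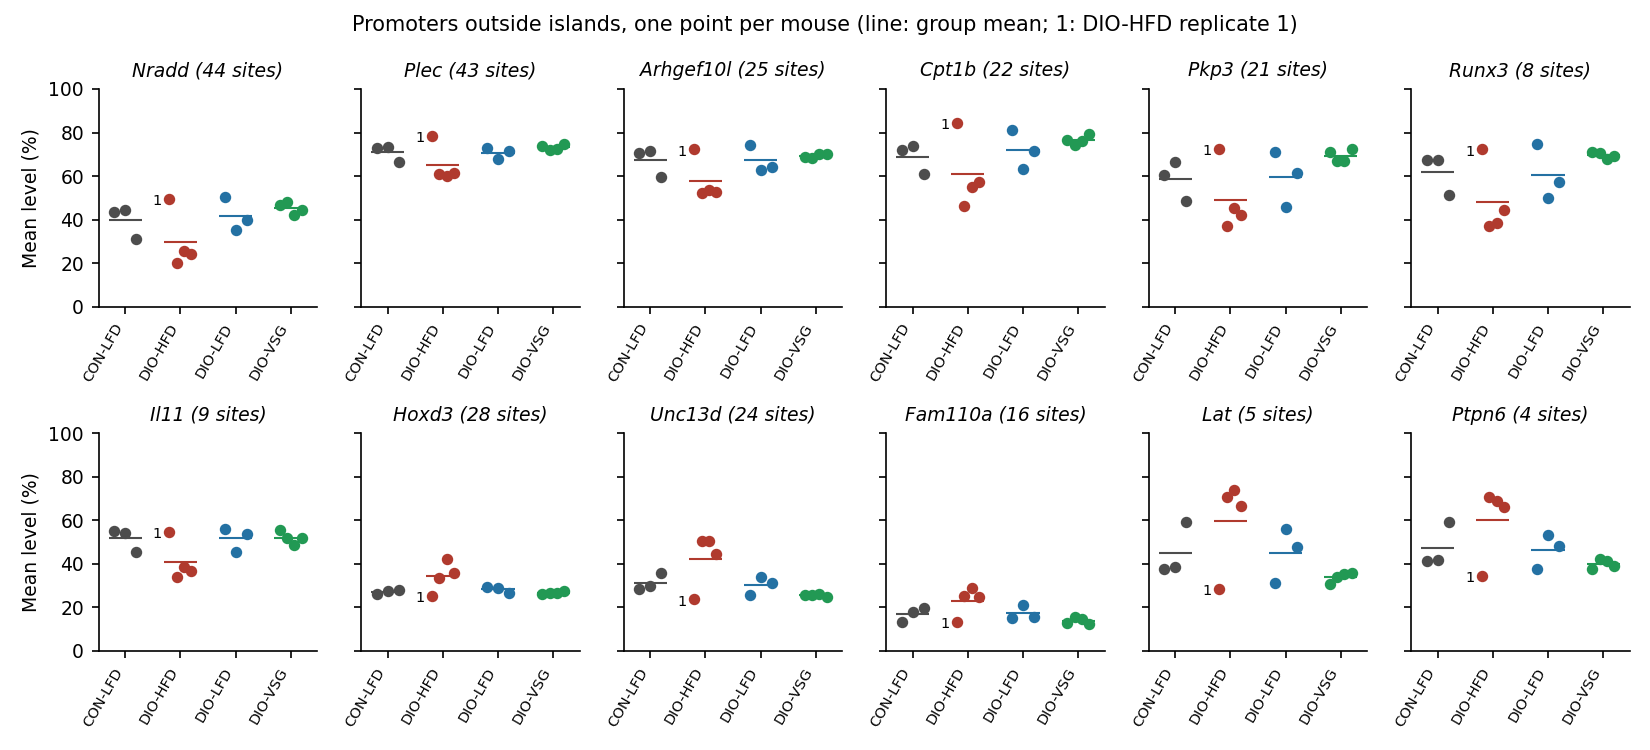
Mean methylation level in percent (vertical axis, 0 to 100) of 12 promoters outside islands in each mouse, by group, with lines at the group means and the number 1 beside DIO-HFD replicate 1. In Nradd to Il11 the DIO-HFD replicates 2 to 4 lie below the DIO-VSG mice and in Hoxd3 to Ptpn6 above them, and replicate 1 lies near or beyond the DIO-VSG mice.

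Genes of 11 lists of cell types and pathways were counted next, as a description. For DIO-VSG against DIO-HFD mice, the lymphocyte list had a median on the other side of 0 from all promoters, as did the small myeloid and cytokine lists. For DIO-LFD against DIO-HFD mice the lymphocyte median was 0.256 points, on the side of all promoters (1.71). Of its 61 genes, 10 have a promoter site outside islands, and 2 were higher and 8 lower in DIO-VSG than in DIO-HFD mice, with a median of -3.18 points. None passed an adjusted p under 0.05 in limma; 3 were tested, with 1 higher and 2 lower at an unadjusted p under 0.05, where 39.8% of all tested promoters passed, 388 of 1286 higher and 124 lower. Lat and Ptpn6 were taken from this list after their values were seen. Lat, encoding an adaptor of T cell receptor signaling, has 5 exonic sites on chromosome 7. It had 28.4%, 70.7%, 73.7% and 66.4% in the DIO-HFD mice and 30.9%, 33.8%, 35.4% and 35.6% in the DIO-VSG mice. The M difference was -1.53 (limma, SE 0.507, adjusted p 0.0869). The adjusted p was 0.000671 without DIO-HFD replicate 1 and up to 0.241 without another mouse. Ptpn6, encoding the blood cell phosphatase SHP-1, had 34.3%, 70.8%, 69.0% and 66.0% in the DIO-HFD mice and 37.7%, 42.2%, 41.4% and 39.2% in the DIO-VSG mice. Its adjusted p in limma was 0.0877, with 0.000686 without replicate 1 and up to 0.241 without another mouse. In both genes replicate 1 was below the DIO-VSG mice and the other 3 DIO-HFD mice far above them. CON-LFD replicate 3 was also high in both, with 59.0% and 59.0%. Runx3, encoding a transcription factor of T cells, went the other way, with 72.3%, 37.2%, 38.4% and 44.3% in the DIO-HFD mice and 71.0%, 70.8%, 67.8% and 69.3% in the DIO-VSG mice (adjusted p 0.0877). Tcf7, a T cell transcription factor, had 57.5% ± 6.92 and 52.0% ± 2.24 and was not tested because it varied too little.

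Promoters chosen after their values were seen gave the same 2 patterns in more sites. Unc13d, encoding a protein of cytotoxic granule release, has 24 sites between positions 116077093 and 116078489 of chromosome 11. Its mean was 23.6%, 50.4%, 50.3% and 44.4% in the DIO-HFD mice, 28.6%, 29.9% and 35.7% in the CON-LFD mice, 25.8%, 34.0% and 31.1% in the DIO-LFD mice and 25.6%, 25.7%, 26.1% and 24.9% in the DIO-VSG mice. DIO-HFD replicates 2 to 4 were above all other mice (limma, DIO-VSG against DIO-HFD, adjusted p 0.0869). The adjusted p was 0.000423 without replicate 1 and up to 0.241 without another mouse. Fam110a, with 16 sites on chromosome 2, had 23.0% ± 6.64 in DIO-HFD and 13.9% ± 1.46 in DIO-VSG mice (adjusted p 0.0877). Nfatc2, whose promoter is printed above, had 26.3%, 40.0%, 41.0% and 36.2% in the DIO-HFD mice and 23.2%, 27.2%, 23.9% and 25.5% in the DIO-VSG mice. Eva1b, with 12 sites on chromosome 4, had 40.9%, 16.3%, 19% and 20.8% in the DIO-HFD mice and 40.0%, 45.5%, 39.7% and 37.4% in the DIO-VSG mice. Its adjusted p in limma was 0.0869, with 0.000571 without replicate 1 and up to 0.241 without another mouse. Il11 had 54.8%, 33.8%, 38.3% and 36.8% in the DIO-HFD mice and 55.6%, 51.7%, 48.8% and 51.9% in the DIO-VSG mice. Since these genes were picked for their values, no support is drawn from them.

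**Figure D5:**
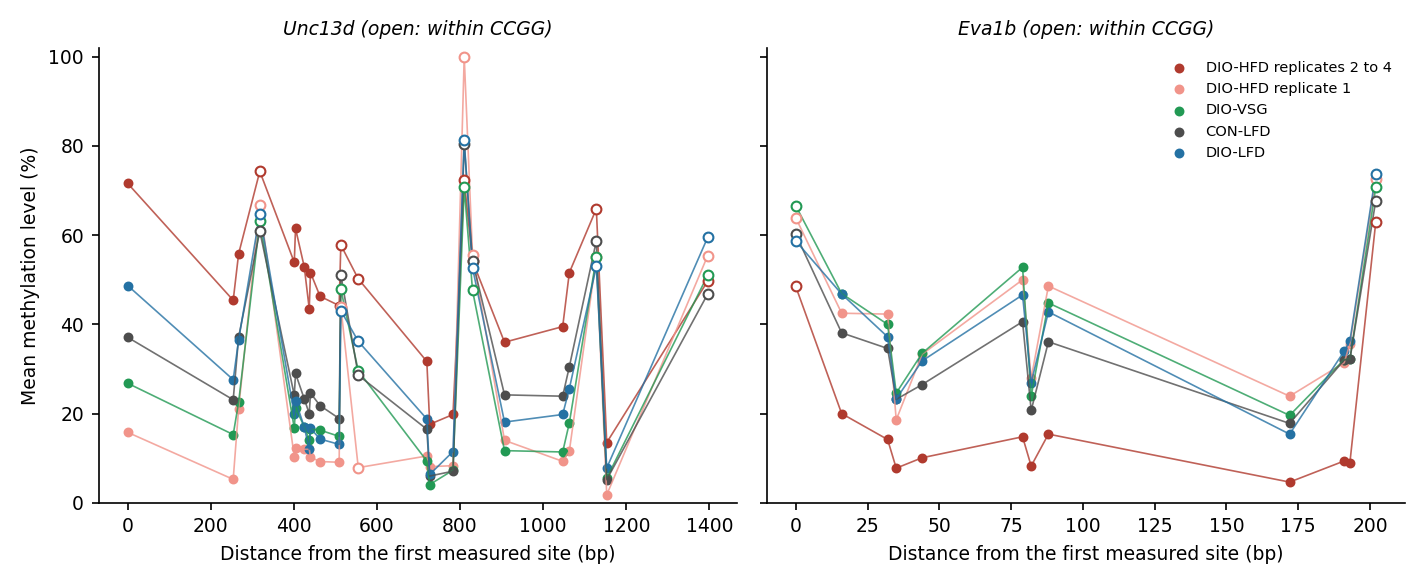
Methylation level in percent (vertical axis) of each measured site of the Unc13d and Eva1b promoters by distance in bp from the first site, with 1 line per group mean and DIO-HFD split into replicate 1 and the mean of replicates 2 to 4; open points are sites within CCGG. In Unc13d the replicates 2 to 4 lie above the other lines at sites outside CCGG, and in Eva1b below them.

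The other lists lay mostly on the side of all promoters. In the list of endothelium, 8 of 40 genes have a site, 6 were higher and 2 lower in DIO-VSG than in DIO-HFD mice, and the median was 8.40 points. Nos3, encoding endothelial nitric oxide synthase, had 62.3% ± 17.4 in DIO-HFD and 76.8% ± 1.16 in DIO-VSG mice. The M difference was 0.844 (limma, adjusted p 0.183), and 1.47 without DIO-HFD replicate 1 (adjusted p 0.00177). Without another mouse the adjusted p was up to 0.44. Egfl7, encoding a protein secreted by endothelium, had 61.5% ± 15.1 and 77.7% ± 0.335 (limma, adjusted p 0.0900). The adjusted p was 0.00172 without replicate 1 and up to 0.258 without another mouse. In the germ line list, 7 of 8 genes with a site were higher (median 8.53), among them Prm1, encoding a protamine of sperm, with 27.5% ± 13.8 and 48.1% ± 3.24 (adjusted p 0.0860). In the neuronal list 19 of 23 were higher (median 7.19). In the list of extracellular matrix and fibroblasts 13 of 17 were higher (median 5.46). Adamts4, encoding a proteoglycan-cleaving protease, had 52.5% ± 14 and 66.5% ± 3.26. Its M difference was 0.804 (limma, adjusted p 0.132), and 1.23 without DIO-HFD replicate 1 (adjusted p 0.00389). Without another mouse the adjusted p was up to 0.321.

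In the list of adipocytes and lipid metabolism, 16 of 87 genes have a site, and 12 were higher and 4 lower in DIO-VSG mice (median 5.34). All 4 of its tested promoters were higher at an unadjusted p under 0.05 in limma, where 30.2% of all tested promoters were, and 0 at an adjusted p under 0.05; with 4 promoters nothing is read from this count. Cpt1b, encoding the muscle form of the enzyme that takes fatty acids into mitochondria, has 22 sites on chromosome 15 and had 84.6%, 46.4%, 54.9% and 57.2% in the DIO-HFD mice. It had 76.7%, 74.3%, 76.0% and 79.3% in the DIO-VSG mice (limma, adjusted p 0.125). The adjusted p was 0.00152 without DIO-HFD replicate 1 and up to 0.344 without another mouse. Rxra, encoding a nuclear receptor partner of PPAR-gamma, had 23.8% ± 13.7 in DIO-HFD and 34.5% ± 0.813 in DIO-VSG mice. Its M difference was 0.843 (limma, adjusted p 0.125), and 1.31 without DIO-HFD replicate 1 (adjusted p 0.00177). Without another mouse the adjusted p was up to 0.32. In the epithelial list 13 of 16 genes were higher (median 2.59), and Pkp3, encoding the desmosome protein plakophilin 3, has 21 sites with 49.2% ± 16.0 and 69.1% ± 2.81 (adjusted p 0.0877). In the muscle list 6 were higher and 5 lower (median 4.68), with Ckm, encoding muscle creatine kinase, at 61.6% ± 8.44 and 70.6% ± 2.08 (adjusted p 0.166).

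Few genes of the immune signal lists have a promoter site outside islands. In the macrophage and myeloid list 3 of 50 have one, 1 higher and 2 lower in DIO-VSG mice (median -6.71). Irf8, encoding a transcription factor of myeloid and B cells, was at 55.0% ± 4.06 in DIO-HFD and 48.3% ± 1.89 in DIO-VSG mice. Irf5, the higher one, was at 38.6% ± 4.14 in DIO-HFD and 40.5% ± 2.1 in DIO-VSG mice. In the list of cytokines, chemokines and interferon response 7 of 69 have one, 3 higher and 4 lower (median -0.175). In the list of liver, pancreas and gut 4 of 76 have one and all 4 were higher (median 4.03). In Lat, Ptpn6, Runx3, Notch4 and Cpt1b, given mouse by mouse here, DIO-HFD replicate 1 lay apart from the other 3 DIO-HFD mice. Its gap to the nearest of them was smaller in Slc26a5 (37.1% and 31.2%), Mir7687 (10.6% and 10.9%) and the Kcnj11 site (60.0% and 63.8%). The part of cell type shares in the differences given above was not tested.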

How the data were processed

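RRBS levels were read from the deposited table, in which the authors give the level of each mouse as a fraction from 0 to 1 at each cytosine. Per the methods of the authors, Bismark 0.18.1 placed the reads on mm10, samtools 1.5 sorted them, methylKit 1.10.0 called methylation, and 2 outlier mice were removed. The methods also describe removing cytosines with an SD of the level under 0.05 and those with extreme coverage. Yet 1664 of the 8943 sites are under this SD across the 14 mice, so how the filter was applied is unknown. Levels and shares given here are those of the deposited sites, not of promoters in general. The table holds no read counts, so depth is unknown and no interval is given. Promoter, island, exon and intron flags and nearest transcripts are those of the table; CpG context was read from GRCm38.p6, the build of mm10, and gene positions from GENCODE M21. The members and lists were chosen with earlier results of these data known. Per-mouse means were compared by exact permutation tests, and sites and promoters with limma 3.58.1 in R 4.3.3 on M, all 4 groups in 1 model without covariates, with Benjamini-Hochberg adjustment. On simulated data for DIO-VSG against DIO-HFD, the fit of 65610 sites recovered 48 of 200 sites changed by an M of 2 and 157 of 200 changed by 4, and the fit of 1286 promoters 185 and 198 of 200. False calls were 6 and 9 sites, and 8 and 10 promoters. The simulation drew independent noise with 1 spread shared by all groups. In the data the mean level had an SD of 3.74 points in DIO-HFD and 0.344 in DIO-VSG mice. The recovered numbers therefore do not give the power of the comparisons made here. The rule for named genes took, per comparison, the 6 promoters and 4 sites with the smallest p, 2 genes per list and the 6 promoters with the most sites; not all are given. Figures and tables used Python 3.11.15, NumPy 2.4.6, pandas 2.3.3, pysam 0.24.0 and Matplotlib 3.10.9.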

Additional observations from a re-analysis of the deposited data

Results flagged for a closer look

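In groups of 4 mice, the gap of the highest or lowest mouse to its neighbour was set against the range of the group. Of 146 such groups 19 exceeded the 95% critical value of 0.829, and 14 of the 19 were DIO-HFD groups. Chance exceeds it in about 1 of 20 groups taken without regard to their values, but some of these promoters and sites were chosen for their values and all share the same mice, so no chance count applies to the 19. The largest among means over all sites was the excess of promoter sites outside islands over island promoter sites in DIO-HFD mice, a ratio of 0.967, where replicate 1 had 9.35 points and the others 4.90 to 5.05. DIO-HFD replicate 1 stood apart in the promoters of Zmynd8 (0.870), Notch4 (0.847), Lrrc10 (0.855), Plec (0.910), Arhgef10l (0.930), Rxra (0.832), Adamts4 (0.916), Ckm (0.835), Prm1 (0.880), Lat (0.839) and Ptpn6 (0.871). It did so at the sites of Zcchc14 (0.934), with 10.8% against 2.48% to 3.03%, and Nr2f2 (0.838), with 89.7% against 83.8% to 84.8%.

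In DIO-VSG mice, replicate 1 stood apart in the Atp11a promoter (0.935), with 41.0% against 33.8% to 34.3%, and replicate 2 in the Csf3 promoter (0.848), with 81% against 83.3% to 83.7%. Single sites with 1 DIO-VSG mouse apart were Cdc42bpg (0.882, replicate 4 at 96.3%), Zfand3 (1.0, replicate 3 at 97.2% against 100%) and Pfkm (0.857, replicate 4 at 82.9%).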

How the results depend on the processing

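Depth is unknown, so what it limits cannot be given. Without DIO-HFD replicate 1 the numbers with an adjusted p under 0.05 in limma were the highest of any mouse left out in the comparisons with DIO-HFD. Leaving out each mouse in turn, they ranged for sites from 0 to 988 (CON-LFD), 0 to 1205 (DIO-LFD), 0 to 2826 (DIO-VSG) and 0 to 2 (DIO-VSG against DIO-LFD), and for promoters from 0 to 348, 0 to 385 and 0 to 598 in the comparisons with DIO-HFD. A fit of only the 2 groups compared called 1, 3 and 2 sites for CON-LFD against DIO-HFD, DIO-VSG against DIO-HFD and DIO-VSG against DIO-LFD, where 2, 47 and 21 of all 65610 tested sites were called. The level in place of M called 92 promoters for DIO-VSG against DIO-HFD (71 higher, 21 lower), and so did the replicate block (70 higher, 22 lower), with 130 of all 1286 tested promoters called each time; the cause was not tested. Same-numbered mice had correlations from -0.315 to 0.470 (median 0.065), and other pairs from -0.606 to 0.508 (median -0.035). Pairs of replicate 1 mice ran from 0.063 to 0.470. These correlations cannot decide whether the numbers pair the mice. The block moved no other number of calls and no exact p across 0.05. Outside CCGG, an alternative chosen after seeing the data, the excess over island promoter sites differed by 2.00 points between DIO-VSG and DIO-HFD mice (exact p = 0.0286); no other exact test crossed 0.05. The other alternatives (offset, trend and robust, centring, SD filters, upstream window, at least 3 sites, equal weight per promoter) left each number of calls and each exact p on the same side.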
